A study of Mus musculus with 8 samples.

Results

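Foxk1 peaks on mouse chromosome 19 were taken as every peak of the deposited Foxk1 list that lies on that chromosome, 1342 of 28933 peaks in all. Chromatin of untreated mouse embryonic fibroblasts (MEFs), connective-tissue cells cultured from embryos, was sequenced after precipitation with Foxk1 antibody in 3 libraries, after precipitation with control IgG in 3, and as input without antibody in 2. The labels name no strain, genotype or age for any group. The list gave 1 signal value per peak for Foxk1 against input on the mm9 assembly. No value per library or for IgG was used here, so no replicate error can be given, and enrichment that IgG would also give cannot be told apart.

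Foxk1 is a transcription factor of the forkhead family, whose winged-helix domain contacts DNA. It is known as a repressor that recruits the Sin3 complex, and for its part in autophagy genes and in glucose metabolism. Chromosome 19 is the shortest mouse autosome and is known to be rich in genes. Among the loci it carries are the nuclear noncoding RNAs Malat1 and Neat1, the NF-kB subunit gene Rela, the AP-1 gene Fosl1, the tumour suppressor gene Men1, the stearoyl-CoA desaturase genes, and large families that fibroblasts are not known to use, such as olfactory receptor and Cyp2c genes. Chromosome 19 was singled out because the list is densest there. Its counts and signal values are therefore given as a description, with no test.

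A forkhead factor's preferred word, GTAAACA, was looked for in promoters of named genes of the chromosome. Promoters were taken from RefSeq on the assembly GRCm38.p6, 250 bases before to 50 after a start site. These positions are not on the scale of the peaks and were not set against them. Of 30 genes looked up, 23 had a promoter in the table, with 30 promoters between them. The word was found on either strand in 2 of the 30 promoters, that of Klf9 and 1 of the 3 of Mxi1. Both are shown with the word in capitals, beside Malat1 and Cnnm2, whose promoters lack the word. By general knowledge of mm9, the windows of Malat1 and Cnnm2 hold the most peaks and the highest peak of the chromosome.
Klf9 (chr19:23140976-23141275, plus strand): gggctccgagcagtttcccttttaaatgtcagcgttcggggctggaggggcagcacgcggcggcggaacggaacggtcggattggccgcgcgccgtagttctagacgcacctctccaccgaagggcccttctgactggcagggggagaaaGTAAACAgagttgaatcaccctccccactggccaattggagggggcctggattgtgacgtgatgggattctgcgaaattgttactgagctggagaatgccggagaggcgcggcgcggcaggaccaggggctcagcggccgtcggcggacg
Mxi1 (chr19:53329445-53329744, plus strand): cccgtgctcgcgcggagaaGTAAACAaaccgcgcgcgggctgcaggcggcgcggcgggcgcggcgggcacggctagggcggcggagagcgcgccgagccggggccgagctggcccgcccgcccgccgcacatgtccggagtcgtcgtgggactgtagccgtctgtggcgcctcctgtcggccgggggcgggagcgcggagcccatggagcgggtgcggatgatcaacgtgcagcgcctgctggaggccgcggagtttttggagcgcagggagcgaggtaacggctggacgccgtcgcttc
Malat1 (chr19:5802623-5802922, minus strand): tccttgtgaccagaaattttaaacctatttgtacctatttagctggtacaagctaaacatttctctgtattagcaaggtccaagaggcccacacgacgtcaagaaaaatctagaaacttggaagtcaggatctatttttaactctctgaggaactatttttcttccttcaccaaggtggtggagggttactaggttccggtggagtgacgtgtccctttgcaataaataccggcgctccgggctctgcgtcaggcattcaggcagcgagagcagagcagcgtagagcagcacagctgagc
Cnnm2 (chr19:46761359-46761658, plus strand): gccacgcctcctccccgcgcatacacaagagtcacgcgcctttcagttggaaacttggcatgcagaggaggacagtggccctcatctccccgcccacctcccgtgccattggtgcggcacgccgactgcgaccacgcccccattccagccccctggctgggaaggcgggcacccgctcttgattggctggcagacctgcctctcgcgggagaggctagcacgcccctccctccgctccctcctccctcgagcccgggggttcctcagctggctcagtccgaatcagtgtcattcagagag
The word lies 100 bases before the start site of Klf9, and 231 bases before 1 of the 3 start sites listed for Mxi1. It is uncommon: 39 of 1044 promoters of chromosome 19 held it (3.74%), against 1160 of 31807 promoters of the other chromosomes (3.65%). The promoters of chromosome 19 were thus close to the others in this respect. The 5-base core AAACA, which lies inside GTAAACA, was found on either strand in 50.1% of promoters on chromosome 19 and in 50.6% of the others. A match is a description of letters and shows no binding.

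Peaks ran along the whole chromosome from a first summit at 3283057 to a last at 61275641. No 1 Mb window between them was without a peak, against 319 of 2519 such windows (12.7%) on chromosomes 1 to 18 and X. Some other chromosomes came close, with 1 empty window of 101 on chromosome 15 and 3 of 93 on chromosome 17. The 58 full windows of 1 Mb held a median of 22 peaks, with quartiles of 14 and 31, whereas the median elsewhere was 9. Chromosomes 11, 15 and 10 came closest, with medians of 17, 14 and 13. On chromosome 19 the range was wide, from 1 to 69 peaks. In 13 full windows there were at most 10 peaks, and in 8 there were at least 40. Those 8 windows carried 395 peaks, or 29.4% of the peaks of the chromosome. Of all 39 windows in the list with at least 40 peaks, 20.5% lay on chromosome 19, which makes up 2.33% of the summed length of the chromosomes compared.

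**Figure D1:**
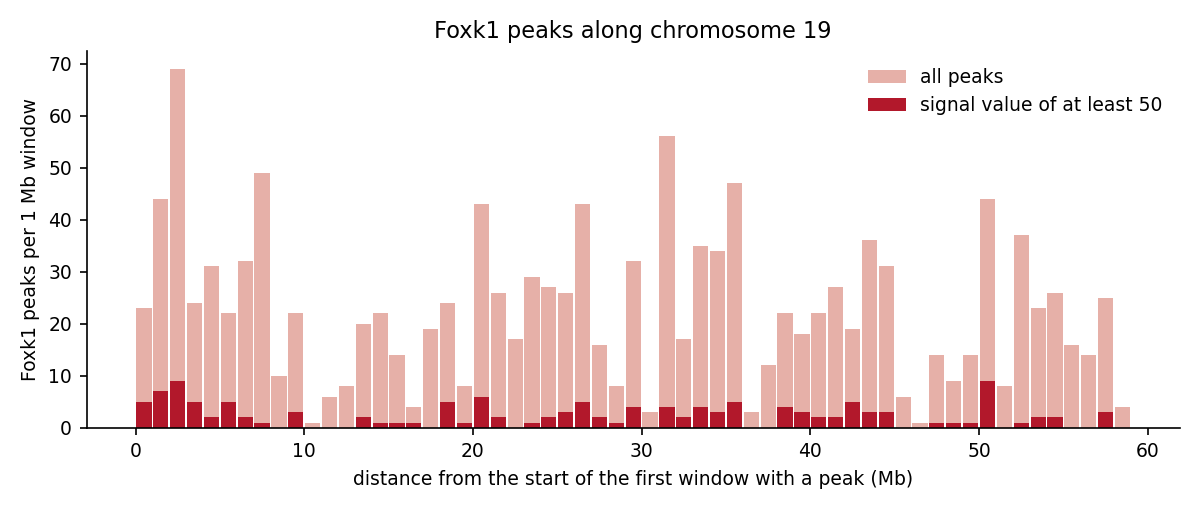
Number of Foxk1 peaks in each 1 Mb window of chromosome 19 (vertical axis), by distance from the start of the first window with a peak (horizontal axis, Mb); dark bars count peaks whose signal value reaches 50, and the last window is cut short by the chromosome end. Counts range from 1 to 69, and low stretches stand between tall groups of windows.

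The fullest window ran from 5000001 to 6000000 with 69 peaks. In the mouse genome this stretch holds Fosl1, a component of AP-1, Cfl1, which encodes the actin-severing protein cofilin, Rela, and Malat1 with Neat1. Next came the window from 34000001 to 35000000 with 56 peaks, which holds Acta2, the smooth muscle actin gene of contractile fibroblasts, and the death receptor gene Fas. The window from 10000001 to 11000000 had 49 peaks and holds the fatty acid desaturase genes Fads1 and Fads2. The window from 38000001 to 39000000 had 47, and that from 4000001 to 5000000 had 44. The last count was equalled between 53000001 and 54000000, the stretch of the Myc antagonist gene Mxi1 and of Dusp5, a phosphatase gene that is induced by growth factors. Gene places are general knowledge of the mouse assembly at the scale of these windows, not a look-up. A window count is not the count of a gene.

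Of 34 landmark genes considered here, 29 could be placed in a 1 Mb window with certainty. Their order by window was also their order in the RefSeq gene table of GRCm38.p6, at all 28 steps from one to the next. Genes of the same window cannot disagree in this, and a matching order does not show that a window is right. The NF-kB and AP-1 genes lay in windows of 69 peaks (Rela and Fosl1), 36 (Nfkb2, the precursor of p52) and 27 (Chuk, a kinase of the NF-kB inhibitor). None of the 36 peaks lay from 46300001 to 46400000. Nfkb2 was not placed within its window, so these peaks may lie far from it. Actin and fibroblast genes were more spread. Their windows held 69 peaks for Cfl1, 56 for Acta2, 35 for the stretch-responsive gene Ankrd1 and 32 for the giant scaffold gene Ahnak, but 19 for Anxa1, an annexin, and 18 for Loxl4, a collagen cross-linking enzyme. The window of Loxl4 had no summit between 42241005 and 42862959. Loxl4 was not placed within its window, so its 18 peaks may lie far from it. Growth and death genes had 56 peaks in the window of Fas, 44 for Mxi1 and Dusp5 and 24 for Men1. Lipid genes had 49 for Fads1 and Fads2, 27 for Scd1 and Scd2 and 23 for Cpt1a, the gate of mitochondrial fatty acid oxidation. For the cytokine genes Jak2 and Cd274 it was 43, and likewise for Klf9, a zinc-finger gene that responds to glucocorticoids. The Wnt genes Lrp5, Btrc and Tle4 had windows of 23, 19 and 6, and the neuronal sorting receptor genes Sorcs1 and Sorcs3 windows of 14 and 6. In all, 23 of the 29 genes lay in windows above the median of 22 peaks and 6 in windows below it. By definition, no more full windows lie above a median than at or below it. The 29 genes share 18 windows, so that these counts are not independent. Fosl1, Cfl1, Rela, Malat1 and Neat1 all lay in that of 69 peaks. The genes were also chosen with earlier results of these data known, so the count is no result about them.

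At 100 kb, 392 of 581 windows of chromosome 19 (67.5%) held at least 1 peak, against 43.9% of 25053 windows on chromosomes 1 to 18 and X. Occupied windows were also fuller, with a mean of 3.42 peaks on chromosome 19 and 2.51 elsewhere. The first ratio is 1.54 and the second 1.36, so the higher density was made up of both. On both measures chromosome 19 ranked first of 20. Chromosomes 15, 10 and 11 came closest in occupied windows (59.3%, 59.2% and 59.1%), and chromosomes 11 and 15 were next in peaks per occupied window (3 and 2.90). Windows with 1 peak were about as common on chromosome 19 as elsewhere (19.1% and 17.7%), whereas windows with at least 5 made up 15.5% there and 5.82% elsewhere. At least 10 peaks were found in 16 windows on chromosome 19 (2.75%), against 108 windows on the others (0.431%). Within the chromosome the peaks were unevenly shared out as well: the 90 fullest windows, 15.5% of the 581, held 50% of them.

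**Figure D2:**
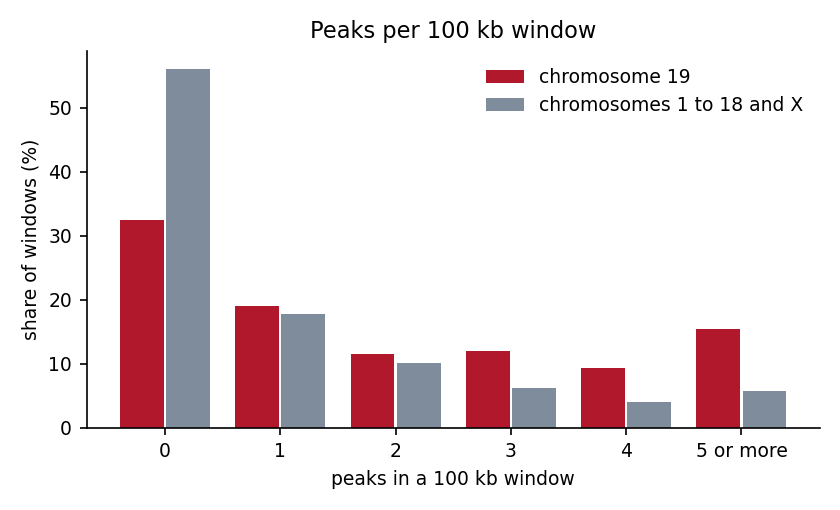
Share of 100 kb windows (vertical axis, %) with 0, 1, 2, 3, 4 or at least 5 Foxk1 peaks (horizontal axis), on chromosome 19 (red) and on chromosomes 1 to 18 and X pooled (grey). Empty windows make up 32.5% on chromosome 19 and 56.1% elsewhere.

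**Figure D3:**
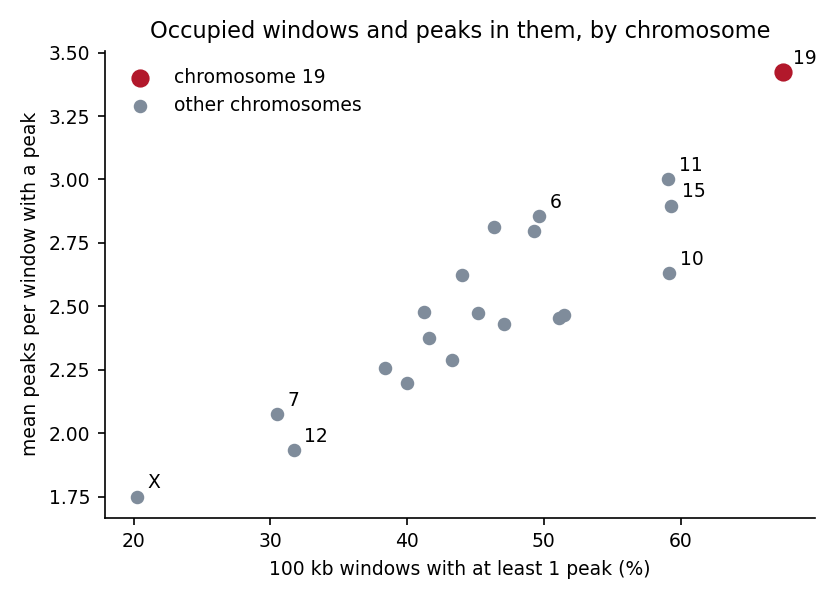
Each point is a chromosome, placed by its share of 100 kb windows with at least 1 peak (horizontal axis, %) and by the mean number of peaks in those windows (vertical axis); neither axis starts at 0. Chromosome 19 (red, 67.5% and 3.42) lies beyond the other chromosomes (grey) on both axes.

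The median distance from a summit to the next was 15.1 kb on chromosome 19 and 25.4 kb on the others, and the lowest median of another chromosome was 18.7 kb, on chromosome 6. Another summit lay within 2 kb of 490 peaks (36.5%), against 25.2% of peaks elsewhere and at most 29.01% on any other chromosome (chromosome 11). There were 50 pairs of neighbours that overlapped, against 12 to 68 on the other chromosomes, all of which are longer. Peaks with no other within 100 kb numbered 44 (3.28%), against 6.48% elsewhere. On this measure chromosome 11 was lower still, with 2.71%. When summits up to 10 kb apart were joined, 34 groups of at least 5 peaks held 223 peaks, or 16.6% of those of the chromosome. Such groups are not given for the other chromosomes, so this share cannot be called particular to chromosome 19.

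The fullest 100 kb window, from 5800001 to 5900000, had 20 peaks with signal values from 12.5 to 124 and a median of 21.5. It holds Neat1 and the start of Malat1, noncoding RNAs of paraspeckles and nuclear speckles, which are direct neighbours in the gene table. Malat1 may run past the lower edge of the window. For this and the other 100 kb windows, gene places are general knowledge of mm9, not a look-up. They were not checked at this finer scale. The peaks formed separate groups. One group of 11 summits ran from 5798845 to 5816158, across the lower edge of the window, with signal values up to 91.6, and another of 9 ran from 5837691 to 5848519 with values up to 99.99. The highest peak of the window, from 5877822 to 5878281 with a signal value of 124, stood apart from both.

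The next window, from 8800001 to 8900000, had 15 peaks and the highest median of the 7 fullest, 27.9. Its peaks from 8816046 to 8816505 and from 8876638 to 8877097 had signal values of 102 and 77.4. The windows from 9100001 to 9200000, with 14 peaks, and from 9000001 to 9100000, with 13, adjoin each other and hold Ahnak. In the window of 14 peaks all summits lay within 31.3 kb, at a median distance of 1.44 kb. A signal value of at least 50 was found for 1 of its peaks, the one from 9134562 to 9135021 with 79.0. Over the whole list, 7.97% of peaks reach 50. The other window of the pair had 1 such peak as well, from 9072000 to 9072459 with 66.8. Counts of 1 in 14 and 1 in 13 are near that share. The median signal values of the windows were 21.1 and 19.97, against 18.03 for the chromosome.

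A count of 13 was shared by the windows starting at 23500001, 44300001 and 46500001. That starting at 44300001 holds Scd2, which makes oleic from stearic acid and lies between Scd3 and Scd4 in the gene table. Its peaks reached only 46.8, whereas the window starting at 23500001 had a peak of 127. That starting at 46500001 had a median of 27.5 and a highest value of 76.1. The remaining windows of the 10 fullest, the last chosen by position among ties, started at 5400001 (12 peaks, highest 40.2), at 34500001 (12 peaks, highest 84.3) and at 10600001 (11 peaks, highest 44.3). By the same general knowledge, the one at 5400001 holds Fosl1 and Cfl1.

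**Figure D4:**
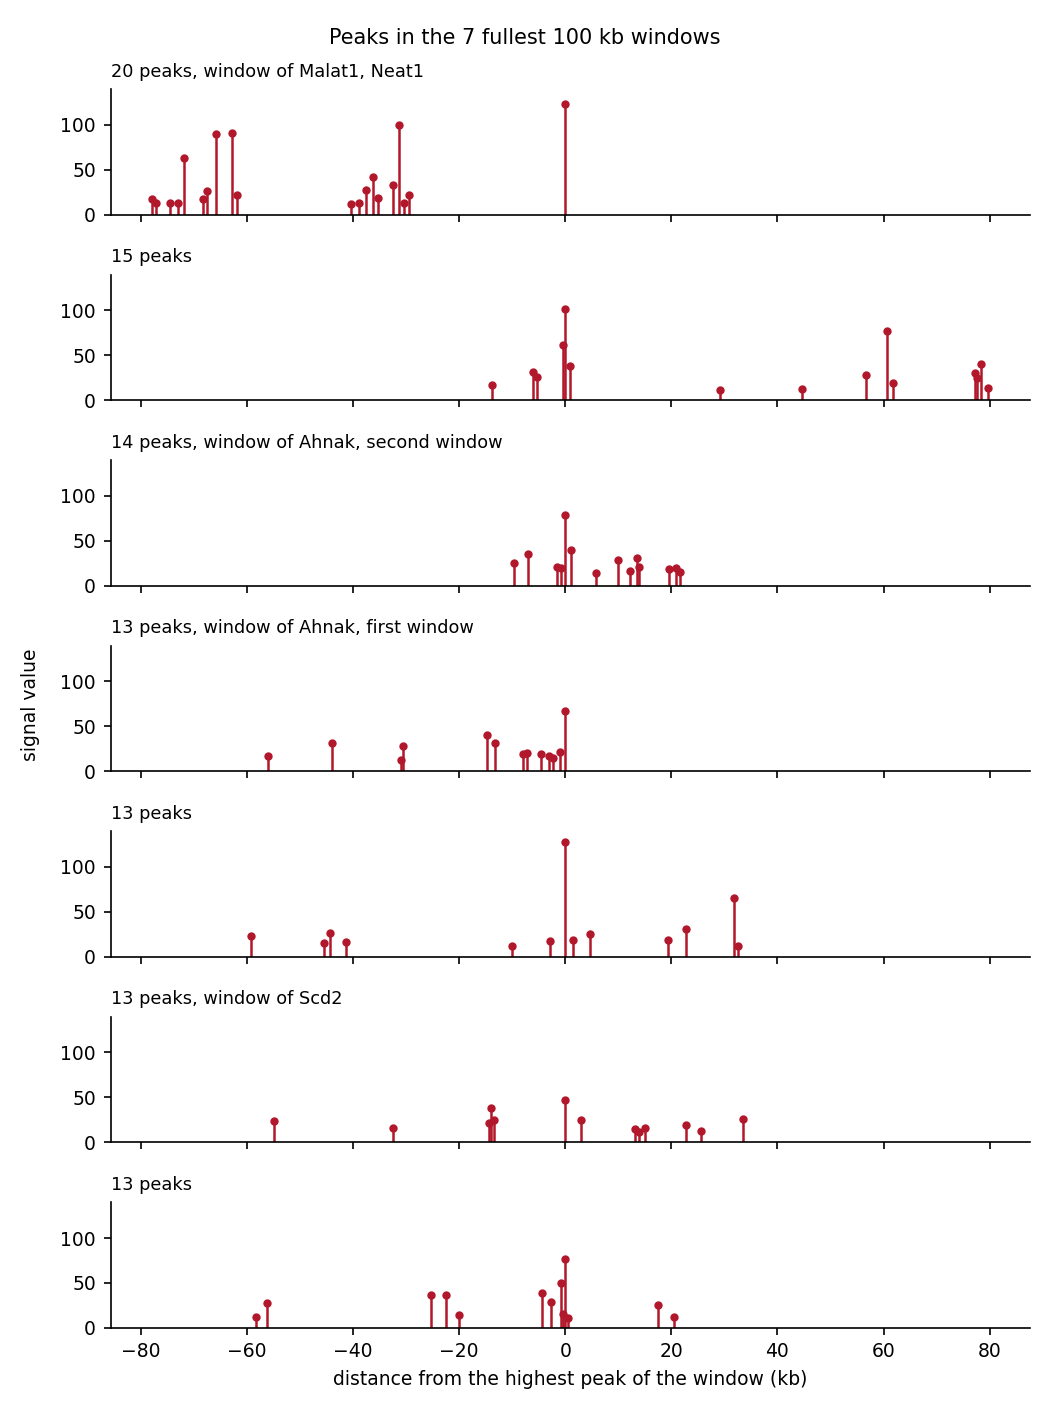
Signal value (vertical axis) of each peak in the 7 fullest 100 kb windows of chromosome 19, by distance of its summit from the highest peak of the window (horizontal axis, kb). Panels run from 20 peaks down to 13. The highest values are 124 in the window of Malat1 and Neat1 and 127 in a window of 13 peaks, and the Scd2 window stays under 50. Gene names of windows are general knowledge of mm9, not a look-up.

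The 100 kb window of Klf9, from 23200001 to 23300000, had 6 peaks, all within 6.67 kb. Their signal values, in order along the chromosome, were 16.2, 79.8, 24.1, 13.4, 66.0 and 133. The highest, from 23215373 to 23215832, lay at the start of Klf9 as far as general knowledge of mm9 places it, and a peak of 66.0 had its summit 414 bp before it. A value of 50 was passed by 3 of these 6 peaks, against 10.1% of all peaks of the chromosome and 7.97% of the whole list. Klf9 came from the list of landmark genes, which was chosen with earlier results of these data known. The shares are therefore a description only, and 6 peaks are too few to set the window apart.

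The highest peak of the chromosome, and the second of the whole list, ran from 46835652 to 46836111 with a signal value of 319. General knowledge of mm9 places the start of Cnnm2 there, a gene of magnesium transport that was named after the values were seen. Cnnm2 lies between As3mt and Nt5c2 in the gene table. The peak stood nearly alone: its 100 kb window held 1 other peak, 32.9 kb away and with a signal value of 11.5. The next, from 7416215 to 7416674 with 264, was of the opposite kind, with 5 other peaks within 10 kb. The peak from 21179080 to 21179539 had 219, and its nearest neighbour, 1.64 kb away, had 109. Then came 205 from 42164624 to 42165083, 201 from 5388499 to 5388958 and 183 from 6242235 to 6242694. The remaining members of the 10 highest started at 32394164 (169.8), 8955234 (169.6), 4509929 (169.4) and 43749308 (151), and the 11th had 149. The 10 peaks lay in 10 different 1 Mb windows. Of them, 7 had another peak within 10 kb, a share close to that of peaks whose signal value was 50 or more (98 of 136, or 72.1%) and to the 62.8% of all peaks of the chromosome.

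Signal values of chromosome 19 had a median of 18.03, against 17.8 on chromosomes 1 to 18 and X. They are the authors' values, on a scale that is not stated. Of the peaks, 136 (10.1%) had a value of 50 or more, 31 (2.31%) of 100 or more and 5 of 200 or more. The shares over the whole list were 7.97% at 50, 1.47% at 100 and 0.2% at 200. The share at 50 was close to the highest of any other chromosome, 10.02% on chromosome 5, and that at 100 to the 2.12% of chromosome 17. At the low end, the 25th percentile was 13.1 on chromosome 19, lower than the 13.2 to 13.8 of the others. The lowest value on the chromosome, 11.32, was at the limit of the list. The lowest q-value, 0.00014, was given to 211 peaks (15.7%), against 12.2% of the peaks elsewhere. Peaks alone in their 100 kb window had a median of 14.2, and 4 of 111 (3.60%) reached 50. In windows of 2 to 4 peaks the median was 17.9 and the share 9.11%, in those of 5 to 9 it was 18.1 and 12.7%, and in those of at least 10 it was 20.5 and 10.6%. Solitary peaks were therefore mostly low, while the share of high ones did not climb further in the fullest windows. Of the 58 full 1 Mb windows, 44 held at least 1 peak of 50 or more and 14 held none. The number of such peaks in a window rose with the number of all its peaks (Spearman correlation 0.743). Peaks of 50 or more are part of that total, so a positive value follows by construction. It says nothing about their share in a window.

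Empty stretches were short. The longest distance between neighbouring summits was 940 kb. Chromosome 19 was the only one of the 20 compared on which no such distance exceeded 1 Mb, and the shortest maximum on another was 1741 kb, on chromosome 15. Chromosome 19 is also the shortest of them and was singled out as the densest. Its maximum is therefore not on a like footing with theirs. The stretch of 940 kb ran from 7856738 to 8796691. Transporter genes of the Slc22a family lie in that part of the chromosome, which in the gene table come just before Chrm1 and Slc3a2. They were named after the stretch was seen. The next, of 921 kb from 48964846 to 49885616, lies between Sorcs3 and Sorcs1, neighbours in the gene table with no protein-coding gene between them. The third, of 846 kb from 39366757 to 40212314, is the place of the Cyp2c genes, cytochrome P450 genes of liver, of which the table lists 15 on the chromosome. A stretch of 780 kb from 12908295 to 13688299 and one of 553 kb from 13688299 to 14241622 were parted by a single peak with a signal value of 12.2. Both lie in the main run of olfactory receptor genes. The fifth was of 657 kb, from 33413241 to 34070483. Of the summits at the edges of the 5 longest stretches, that at 12908295 had a signal value of 80.9. The others had values from 11.4 to 19.6. Over all peaks of the chromosome the median was 18.03 and the upper quartile 29.5.

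By larger stretches, the first 8 Mb with peaks, from 3 to 11 Mb, carried 294 peaks or 36.8 per Mb. From 13 to 16 Mb there were 15 peaks, 5 per Mb, and from 48 to 53 Mb there were 44, or 8.8 per Mb. These limits were chosen after the values were seen. Depth is unknown, and few peaks in a stretch means that few were detected there, not that Foxk1 did not bind.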

How the data were processed

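Bowtie and the mm9 build are named in the submitters' processing notes. The sources used here do not give its version, the peak caller, the caller's settings or any pooling of libraries. For each peak the authors deposited a signal value, which is a score of unstated scale, and a q-value on a linear scale. All peaks are 460 bp wide. Groups came from the sample titles. Depth per library is unknown.

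Here, peaks were assigned by summit to windows counted from base 1 of the chromosome, from the window of the first summit to that of the last. Coordinates are 1-based on mm9, and density uses the highest peak end as length. The only peak on Y was left out of comparisons. An mm9 genome or annotation was not used here, so the planned share of peaks in promoters was not run. RefSeq tables of GRCm38.p6 gave gene order and promoter sequences. Named items were the 10 highest peaks, the 5 fullest 1 Mb and 10 fullest 100 kb windows (ties by position), the 5 longest stretches and a list of landmark genes. Genes near a window edge (Pdcd4, Vegfb, Bad, Esrra and Tcf7l2) were not placed. A few further genes of the list are not reported here and are left out of the counts over landmark genes. Members and lists were chosen with earlier results of these data known. No significance test was run, since the list holds 1 value per peak. Alternatives were a signal or q-value limit, merging, shifted windows and another measure of length. The counting of windows, merged peaks and distances was checked on positions simulated with known answers. Computation used Python 3.11.15, numpy 2.4.6, pandas 2.3.3, scipy 1.17.1 and matplotlib 3.10.9.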

Additional observations from a re-analysis of the deposited data

How the results depend on the processing

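The ratio of peak density on chromosome 19 to that of the other chromosomes, 2.04, lay between 1.87 (summits under 2000 bp merged) and 2.10 (first to last summit as length). Limits on strength keep a part of the list and lowered its counts by construction. At or above the median signal value of the list, density was 11.1 peaks per Mb (21.9 for all), the fullest 1 Mb and 100 kb windows held 35 and 12 peaks, 51.3% of 100 kb windows were empty, the median distance of summits was 27.6 kb, the longest stretch without a peak 1787 kb and the median signal value 29.3. With a q-value of at most 0.001, density was 11.3, the fullest 1 Mb window held 40 peaks, 50.9% of 100 kb windows were empty and the median distance was 26.0 kb. Under both limits the fullest windows started at 5000001 and 5800001, as for all peaks. With summits under 2000 bp merged, the fullest 100 kb window held 10 peaks and started at 23500001 instead, the median distance was 24.2 kb and the median signal value 18.96. Moving the windows by 0.5 of their length gave 55 and 22 peaks in the fullest. No paired analysis was possible because the list holds no value per replicate, and for the same reason no replicate could be left out.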
